A study of Homo sapiens with 4 samples.

Results

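The genes described here encode the subunits of RNA polymerases I, II and III, together with the single-subunit RNA polymerase of mitochondria. They were chosen by gene name, as the symbols that begin with POLR1, POLR2 or POLR3 followed by a letter, with CD3EAP, TWISTNB, ZNRD1, CRCP and POLRMT, whose older symbols do not follow that pattern. The rule found 43 of the 50868 listed genes, of which 35 are annotated as protein-coding, 7 as pseudogenes and 1 as a long noncoding RNA. The latter is a gene named POLR2J4, and a second gene of that name is among the pseudogenes, so neither is a coding subunit gene. A mean of at least 1 FPKM (counts scaled by a gene's length and by the library's total) over the libraries was reached by 35 of them, among 11503 genes that reached it in all. These 35 comprise 6 of 6 subunits of polymerase I alone, 2 of 2 shared by polymerases I and III, 5 of 5 shared by all of them, 10 of 12 genes of polymerase II, 11 of 11 of polymerase III, and POLRMT. The genes under that level were POLR2J2, POLR2J3 and the 6 pseudogenes other than POLR2J4, and 33 of the 35 are protein-coding.

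The RNA came from Jurkat cells, an established line of human T lymphoblasts labelled as wild type, cultured for 24 h in 1 of 4 conditions. The cells received the solvent DMSO, 0.5 µM JQ1, DMSO with 150 ng/ml PHA, or 0.5 µM JQ1 with 150 ng/ml PHA. JQ1 is a small molecule that displaces BET bromodomain proteins from acetylated chromatin, and PHA (phytohemagglutinin) is a plant lectin that activates T cells. Each condition is 1 RNA sequencing library, so no test between conditions was possible and the spread between cultures is unknown.

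Total counts were 18620954 to 19685401 per library, and 3 counts correspond to 0.152 to 0.161 CPM (counts per unit of depth, with every library scaled to the same total). All 14 of 14 T cell markers examined had more than 3 counts in every library, and their summed level was 2984 CPM in the DMSO library, 3987 after PHA was added to it, and 2497 and 2554 in the JQ1 libraries without and with PHA. The sum mixes directions, since without PHA the shares of PTPRC and TRBC1 were higher with JQ1 and those of the rest lower. PTPRC had the most counts, with 12687, 21101, 23036 and 18538 in the DMSO, JQ1, DMSO + PHA and JQ1 + PHA libraries. TRAC had 534, 286, 7393 and 1582 in that order. Of 8 markers of other cells, 1 or 2 had more than 3 counts, and their sum lay between 5.37 and 8.81 CPM. Most of this sum was COL1A1, with 92, 129, 137 and 163 counts in the DMSO, JQ1, DMSO + PHA and JQ1 + PHA libraries. CD14 had 3, 5, 6 and 0 counts, and MS4A1, HBB, EPCAM, ALB and LYZ had 3 counts or fewer. HEXIM1, which is known to respond to BET inhibitors, had 2450, 7687, 2451 and 6994 counts in the DMSO, JQ1, DMSO + PHA and JQ1 + PHA libraries. The activation gene EGR1 had 29, 25, 2464 and 400 counts in that order, and the activation marker CD69 had 67, 51, 1359 and 198. MYC, which the paper cites as a reported target of JQ1 in cancer cells, had 106, 273, 162 and 454 counts. It was higher, not lower, in both JQ1 libraries than in the DMSO libraries beside them, where it had 0.629 and 0.918 FPKM. In bulk RNA a change in the number of cells of a kind and a change in RNA per cell cannot be told apart.

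The nuclear RNA polymerases divide the transcription of the genome between them. Polymerase I makes the large ribosomal RNA precursor, polymerase II makes messenger RNA, and polymerase III makes transfer RNA, 5S ribosomal RNA and other small RNAs. Each enzyme is built around a large catalytic subunit and a second large subunit that form the active centre, joined by shared small subunits, by a stalk, and in polymerases I and III by extra subunits that serve initiation and RNA cleavage. The genes below are themselves transcribed by polymerase II, whichever enzyme their proteins join. BET proteins act at promoters and enhancers transcribed by polymerase II, and whether they act at these genes was not tested.

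Promoter sequences are shown for 4 genes as examples of the differences below, at least 1 for each enzyme, namely POLR2A, which was higher with JQ1, and POLR1B, CD3EAP and POLR3E, which were lower both without and with PHA. POLR3E stands for polymerase III, whose genes with larger changes, such as POLR3G, POLR3D and CRCP, were not matched to a window here. They are the 250 bases before the RefSeq transcription start (GRCh38.p14), read 5′ to 3′ on the strand of the gene. The windows are chr17:7484116-7484365 for POLR2A, chr2:112541786-112542035 for the first of the POLR1B windows, chr19:45406394-45406643 for CD3EAP (POLR1G in RefSeq) and chr16:22297159-22297408 for POLR3E, all on the plus strand. Capitals mark matches, on either strand, to the E-box CACGTG, the GC box GGGCGG or the CCAAT box, and no matches overlapped in these 4 windows.
POLR2A: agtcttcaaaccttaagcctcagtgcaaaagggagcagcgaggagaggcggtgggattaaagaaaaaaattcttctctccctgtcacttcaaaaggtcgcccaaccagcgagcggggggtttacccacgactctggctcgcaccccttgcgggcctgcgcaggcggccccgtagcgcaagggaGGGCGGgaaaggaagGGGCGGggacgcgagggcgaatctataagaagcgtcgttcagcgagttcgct
POLR1B: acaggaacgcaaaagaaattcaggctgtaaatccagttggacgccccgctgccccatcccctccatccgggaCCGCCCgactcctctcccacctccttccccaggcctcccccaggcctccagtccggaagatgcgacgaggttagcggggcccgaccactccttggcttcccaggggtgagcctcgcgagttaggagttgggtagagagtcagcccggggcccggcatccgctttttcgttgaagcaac
CD3EAP: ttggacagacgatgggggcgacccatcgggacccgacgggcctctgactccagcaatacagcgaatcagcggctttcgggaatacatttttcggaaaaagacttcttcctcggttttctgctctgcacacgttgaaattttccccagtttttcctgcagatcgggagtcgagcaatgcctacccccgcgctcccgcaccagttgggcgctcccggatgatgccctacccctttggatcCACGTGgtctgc
POLR3E: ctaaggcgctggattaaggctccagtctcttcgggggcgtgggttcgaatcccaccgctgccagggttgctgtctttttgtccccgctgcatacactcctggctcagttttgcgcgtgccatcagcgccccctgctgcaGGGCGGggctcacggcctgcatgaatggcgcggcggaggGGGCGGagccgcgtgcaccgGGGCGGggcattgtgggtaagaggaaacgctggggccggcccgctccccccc
In these letters POLR2A holds GC boxes that begin 67 and 52 bases before the start, POLR1B a GC box 178 bases before it, CD3EAP an E-box 12 bases before it, and POLR3E GC boxes 111, 72 and 52 bases before it. The second POLR1B window, not shown, holds GC boxes 229 and 107 bases before its start. By the listed gene positions CD3EAP begins at 45406209, so its whole window and the E-box lie inside the gene. POLR1B and POLR3E begin at 112541915 and 22297375, inside the windows shown. RefSeq windows were found for 25 of the 43 genes, 31 windows in all, of which 24 genes with 30 windows are among the 35. An E-box was present in 9.68% of the 31 windows and in 6.34% of 35116 windows of the same length over all genes. A GC box was present in 71.0% and 42.6%, and a CCAAT box in 22.6% and 32.0%. The 35116 windows were not limited to genes that reached 1 FPKM, so the sets also differ in expression. A match describes the letters only and says nothing of binding.

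The first question was how JQ1 changed the subunit genes in the absence of PHA and in PHA-treated cells. The plot of CPM by gene shows the level of 34 members in every library.

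**Figure D1:**
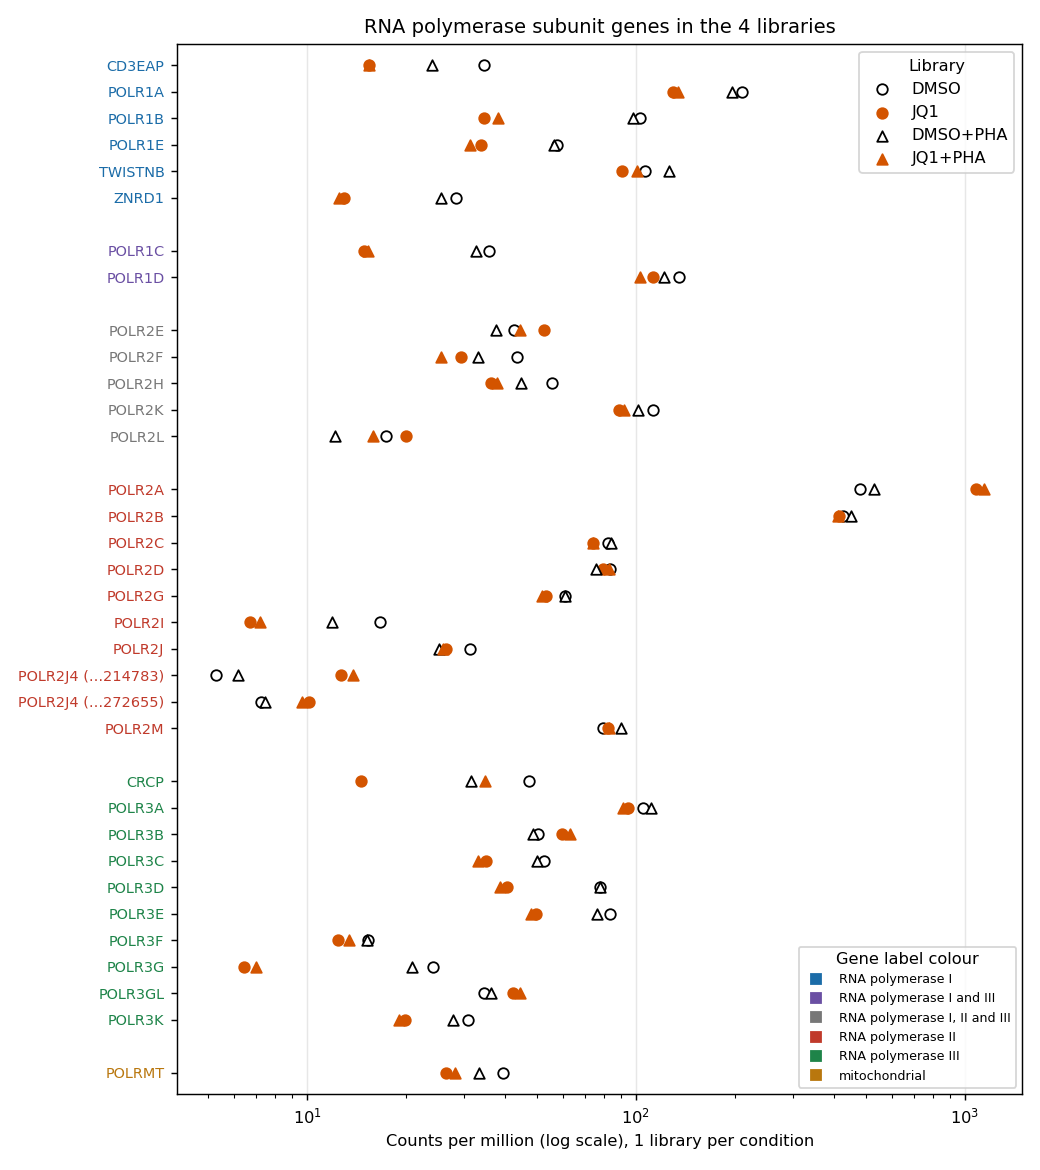
Level in CPM (log scale) of 34 of the 35 subunit genes that reached a mean of 1 FPKM, in the 4 libraries. Open symbols are DMSO and filled symbols JQ1, circles are without PHA and triangles with PHA, and gene labels are coloured by enzyme. POLR2A lies furthest right, in the DMSO libraries at 482 and 531 CPM, near POLR2B at 426 and 452 CPM. It stands apart in the JQ1 libraries only, at 1082 and 1146 CPM.

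JQ1 was accompanied by higher counts of the catalytic subunit of polymerase II and by lower counts of most subunits of polymerases I and III. A gene was counted as past 2-fold on the log2 ratio of FPKM + 0.1. Without PHA, 2 of the 35 members were past 2-fold higher with JQ1 and 8 past 2-fold lower, against a background of 5.22% of all 11503 genes higher and 8.65% lower. The higher pair was POLR2A and the noncoding POLR2J4, whose FPKM was 0.793 and 0.926 in the DMSO libraries, so that it reached the mean of 1 FPKM through the JQ1 libraries. Among the lower genes POLR3G reached it through the DMSO libraries, with 0.853 and 0.929 FPKM in the JQ1 libraries. Without the POLR2J4 genes, 1 of 33 was higher and 8 lower. At 1.5-fold, 2 members were higher and 14 lower, against 14.8% and 19.3% of all genes. With PHA, 2 members were past 2-fold higher and 4 lower, against 3.69% and 8% of all genes, and 2 were past 1.5-fold higher and 11 lower, against 11.7% and 17.8%. By counting error alone, the interval of the ratio lay above 0 for 6 members and below 0 for 25 without PHA, against 36.9% and 38.7% of all genes, and for 8 and 24 with PHA, against 34.6% and 38.2%. The median log2 ratio of the members was -0.35 without PHA and -0.24 with PHA, beside -0.01 and -0.02 for all genes. Without the POLR2J genes and POLRMT the median without PHA was -0.55. All 8 members past 2-fold lower without PHA had a mean under 5 FPKM, and after a pseudocount of 1 was used instead, 3 were past 2-fold lower. The members' summed level was 2882, 2951, 2835 and 3028 CPM in the DMSO, JQ1, DMSO + PHA and JQ1 + PHA libraries, of which POLR2A alone supplied 482, 1082, 531 and 1146 CPM.

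The JQ1 comparisons without and with PHA use separate pairs of libraries. Of the 35 members, 10 (28.6%) were past 1.5-fold lower in both, against 13.2% of all genes, and 2 (5.71%) past 1.5-fold higher in both, against 7.82%. Without the POLR2J4 genes the latter was 1 of 33 (3.03%), POLR2A. Among the 10 genes were CD3EAP, POLR1B, POLR1E and ZNRD1 of polymerase I, POLR1C shared by polymerases I and III, POLR2I of polymerase II, and POLR3D, POLR3E and POLR3G of polymerase III. They are 10 of the 14 called lower without PHA and of the 11 called lower with PHA. The direction was the same in both comparisons for 31 of 35 members (88.6%), beside 82.8% of all genes, and differed for POLR2D, POLR2J, POLR2M and CRCP.

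**Figure D2:**
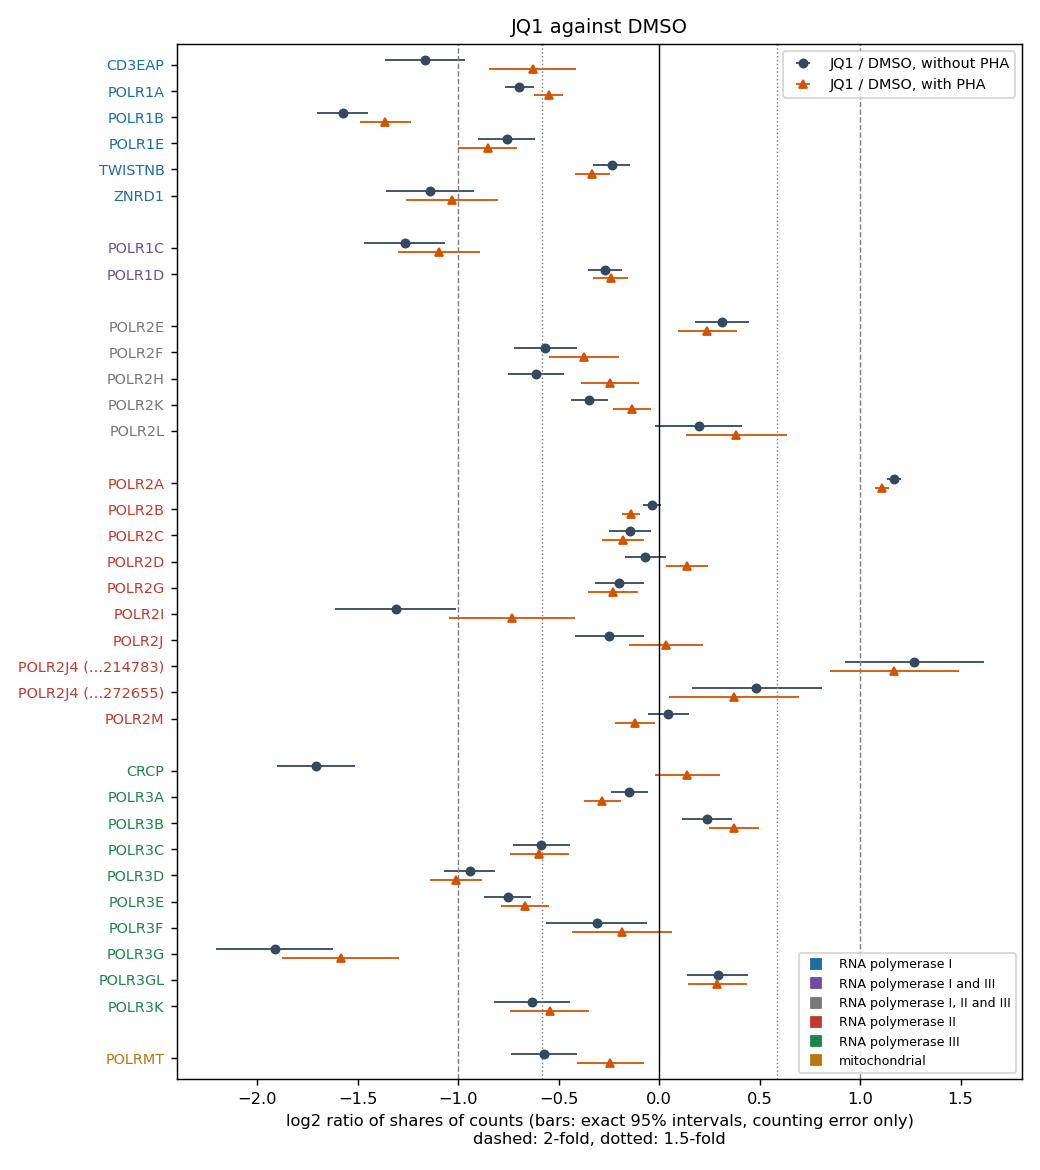
Log2 ratio of the share of counts, JQ1 against DMSO, for 34 subunit genes, without PHA (circles) and with PHA (triangles), with exact 95% intervals that cover counting error only. The 6 polymerase I genes lie left of 0 in both comparisons with intervals that exclude 0, POLR2A lies near 1.1, and CRCP is far from 0 without PHA only.

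Ratios of single genes below are log2 ratios of the gene's share of all counts, followed by the exact (Clopper-Pearson) 95% interval in parentheses. Intervals cover counting error only, without the spread between cultures. Counts are given in the order DMSO, JQ1, DMSO + PHA and JQ1 + PHA.

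Every subunit gene of polymerase I was lower with JQ1. The intervals of all 6 lay below 0 in both comparisons, against 38.7% of all genes without PHA and 38.2% with PHA. Past 1.5-fold lower were 5 without PHA and 4 with PHA, against 19.3% and 17.8% of all genes. The group's median log2 ratio was -0.93 and -0.73. POLR1A, the catalytic subunit, had 3949, 2549, 3861 and 2496 counts. Both JQ1 libraries were lower than both DMSO libraries, at -0.70 (-0.77 to -0.62) in cells without PHA and -0.55 (-0.62 to -0.48) beside PHA. POLR1B, the second largest subunit (chromosome 2, 112541915 to 112577150, plus strand), had 1933, 679, 1926 and 709 counts. This was 2.98-fold lower without PHA, at -1.57 (-1.70 to -1.45), and 2.57-fold lower with PHA, at -1.36 (-1.49 to -1.24). The large subunits of the enzyme therefore differed in the size of their change, and the ratio of POLR1A to POLR1B counts was 2.04, 3.75, 2.00 and 3.52.

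ZNRD1 encodes the RPA12 subunit, which serves RNA cleavage, and had 535, 254, 503 and 233 counts. Its ratios were -1.14 (-1.36 to -0.92) and -1.03 (-1.26 to -0.80), past 2-fold in both. On FPKM + 0.1 the ratio with PHA was -1.00, at the edge of the 2-fold limit. Exons of the antisense gene ZNRD1-AS1 cover 24.5% of its exon bases, and ZNRD1-AS1 went the other way, with 310, 579, 426 and 519 counts. CD3EAP and POLR1E encode the PAF49 and PAF53 subunits, which form a dimer that takes part in initiation. CD3EAP had 649, 303, 471 and 288 counts, with ratios of -1.16 (-1.37 to -0.96) and -0.63 (-0.85 to -0.41). Exons on the opposite strand, among them those of ERCC1 with 900, 652, 890 and 638 counts, cover 49.8% of the exon bases of CD3EAP, and the part of either gene in the other's counts was not tested. POLR1E had 1079, 667, 1110 and 581 counts, with ratios of -0.76 (-0.90 to -0.62) and -0.85 (-1.00 to -0.71). TWISTNB, a stalk subunit, was the member of this enzyme that changed least, with 2004, 1780, 2489 and 1870 counts and ratios of -0.24 (-0.33 to -0.14) and -0.33 (-0.42 to -0.25).

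POLR1C and POLR1D encode the AC40 and AC19 subunits, a dimer on which polymerases I and III both assemble. POLR1C had 671, 292, 643 and 285 counts and was 2.40-fold lower without PHA, at -1.26 (-1.47 to -1.06), and 2.13-fold lower with PHA, at -1.09 (-1.30 to -0.89). Exons on the opposite strand cover 18.3% of the exon bases of POLR1C, and their part in its counts was not tested. Among them are those of XPO5, with 3668, 2624, 3587 and 2538 counts, and of YIPF3, which went the other way with 426, 674, 562 and 693. POLR1D had 2548, 2211, 2394 and 1918 counts, with ratios of -0.27 (-0.35 to -0.19) and -0.24 (-0.33 to -0.15). The intervals of the partners did not overlap in either comparison.

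The 5 subunits common to all nuclear polymerases did not move in a single direction. The median log2 ratio was -0.35 without PHA and -0.13 with PHA. Past 1.5-fold lower were 1 of 5 without PHA and 0 with PHA, against 19.3% and 17.8% of all genes. POLR2H had 1045, 715, 879 and 702 counts, with ratios of -0.61 (-0.75 to -0.47) and -0.24 (-0.39 to -0.10). POLR2F had 818, 578, 650 and 475 counts, with ratios of -0.57 (-0.72 to -0.41) and -0.37 (-0.55 to -0.20). POLR2K, the most abundant of them on the FPKM scale, had 2128, 1750, 1993 and 1717 counts, with ratios of -0.35 (-0.44 to -0.25) and -0.13 (-0.23 to -0.04). These were lower with JQ1, while POLR2E and POLR2L lay on the other side of 0. POLR2E had 799, 1037, 741 and 828 counts, with ratios of 0.31 (0.18 to 0.45) and 0.24 (0.10 to 0.39). POLR2L had 327, 392, 239 and 295 counts, with ratios of 0.20 (-0.02 to 0.41) and 0.38 (0.13 to 0.64), the former interval including 0. Exons of CD151 on the opposite strand, with 120, 63, 149 and 67 counts, cover 22.8% of the exon bases of POLR2L.

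Among the protein-coding genes of polymerase II that reached 1 FPKM, the catalytic subunit was higher with JQ1 and POLR2I was lower, both past 1.5-fold in both comparisons. POLR2A (ENSG00000181222, chromosome 17, 7484366 to 7514618, plus strand) encodes the subunit whose C-terminal repeats are phosphorylated during initiation and elongation. It had 9062, 21289, 10456 and 21334 counts, which is 38.5, 86.5, 42.5 and 91.6 FPKM. Both JQ1 libraries lay above both DMSO libraries, 2.25-fold higher without PHA, at 1.17 (1.13 to 1.20), and 2.16-fold higher with PHA, at 1.11 (1.08 to 1.14). POLR2B, the second largest subunit, had 8008, 8180, 8896 and 7644 counts. Its ratio was -0.03 (-0.08 to 0.01) in cells without PHA and -0.14 (-0.18 to -0.09) beside PHA. The ratio of POLR2A to POLR2B counts was thus 1.13 and 1.18 with DMSO and 2.60 and 2.79 with JQ1. POLR2A made up 53.1% of the pair's counts in DMSO-treated cells (52.3 to 53.8, Wilson 95% interval) and 54.0% after PHA was added (53.3 to 54.7). In the JQ1 libraries it made up 72.2% (71.7 to 72.8) and, after PHA was added, 73.6% (73.1 to 74.1).

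**Figure D3:**
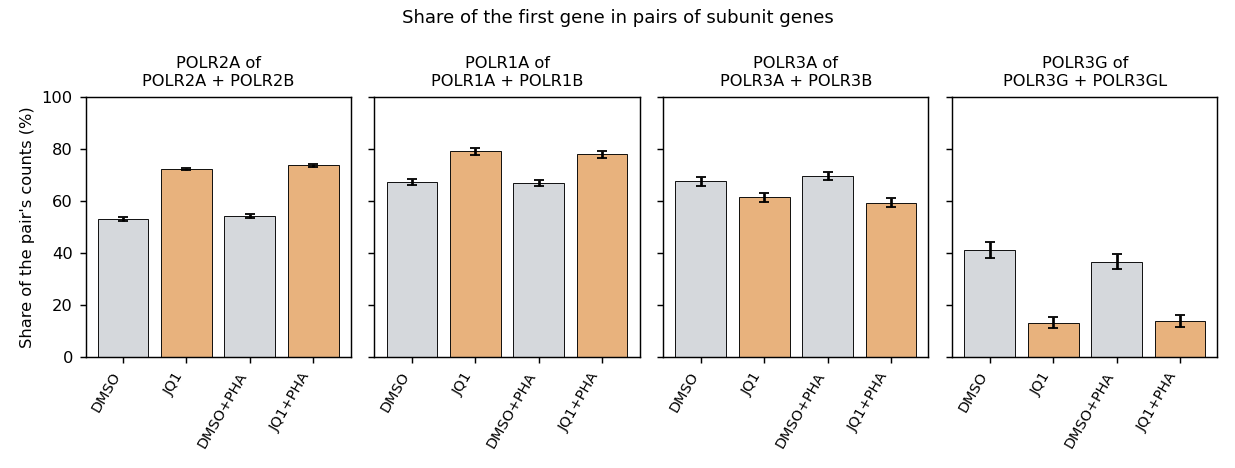
Share of the first gene in the summed counts of a pair of subunit genes, in percent, for each library, with Wilson 95% intervals that cover counting error only; grey bars are DMSO and orange bars JQ1. The share of POLR2A and of POLR1A is higher, and that of POLR3A and of POLR3G lower, in both JQ1 libraries than in both DMSO libraries.

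The other core genes of polymerase II stayed under 1.5-fold, with the exception of POLR2I. POLR2C, the assembly partner of POLR2J, had 1544, 1462, 1650 and 1377 counts, with ratios of -0.14 (-0.25 to -0.04) and -0.18 (-0.28 to -0.08). The stalk subunits POLR2D and POLR2G had ratios of -0.07 (-0.17 to 0.03) and -0.20 (-0.32 to -0.08) without PHA. With PHA they had ratios of 0.14 (0.04 to 0.24) and -0.23 (-0.35 to -0.11), so that the stalk partners lay on opposite sides of 0. POLR2M, which encodes the Gdown1 protein that binds the enzyme, had 1496, 1616, 1772 and 1544 counts, with ratios of 0.05 (-0.06 to 0.15) and -0.12 (-0.22 to -0.02). Shared sequence with the readthrough gene GCOM1 makes its count uncertain, since 30.2% of the 50-base stretches of its transcript occur in transcripts of other genes.

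POLR2I encodes a small subunit that supports transcript cleavage and accuracy. It had 313, 132, 235 and 134 counts, 2.48-fold lower without PHA, at -1.31 (-1.61 to -1.01), and 1.66-fold lower with PHA, at -0.73 (-1.05 to -0.42). Genes on the opposite strand cover 77.2% of its exon bases. Most of this is AD001527.4, with 1 count in every library, and 19.1% is TBCB, with 828, 734, 630 and 722 counts. POLR2I is the polymerase II counterpart of ZNRD1, and both were lower with JQ1 in both comparisons.

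POLR2J and the genes POLR2J2, POLR2J3 and POLR2J4, called copies here, lie on chromosome 7. They share sequence to different extents, so reads may be split between them in a way the sources used here do not describe. Stretches of 50 bases that occur in transcripts of other genes make up 33.3% of the POLR2J transcript, 100% of POLR2J2, 92.3% of POLR2J3, and 32.6% and 100% of the 2 genes named POLR2J4. POLR2J, the main gene, had 590, 520, 497 and 482 counts, with ratios of -0.25 (-0.42 to -0.07) and 0.04 (-0.15 to 0.22). The counts assigned to each copy were higher with JQ1, and which copy the shared reads came from was not tested. POLR2J4 as ENSG00000214783 had 99, 249, 121 and 257 counts, with ratios of 1.27 (0.92 to 1.62) and 1.17 (0.85 to 1.49), and as ENSG00000272655 it had 136, 199, 147 and 180 counts, with ratios of 0.48 (0.16 to 0.81) and 0.37 (0.05 to 0.70). Exons of the former cover 99.1% of the exon bases of the latter on the same strand, so their counts may not be independent. POLR2J3 had 100, 202, 100 and 238 counts, with ratios of 0.95 (0.60 to 1.31) and 1.33 (0.99 to 1.68). POLR2J2 had 3, 40, 10 and 30 counts, but RP11-577H5.5, which overlaps it on the same strand, had 91, 1, 5 and 1 counts. Their sum was 94, 41, 15 and 31 counts, which has no common direction with JQ1. The sum of all POLR2J genes was 928, 1210, 875 and 1187 counts.

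Of the 11 genes of polymerase III, 6 were past 1.5-fold lower with JQ1 without PHA and 5 with PHA. The shares of all genes were 19.3% and 17.8%. The group's median log2 ratio was -0.63 and -0.54. The large subunits were not among the genes past 1.5-fold. POLR3A, the catalytic subunit, had 1978, 1867, 2190 and 1703 counts, with ratios of -0.15 (-0.24 to -0.06) and -0.28 (-0.37 to -0.19). POLR3B, the second largest subunit, had 951, 1172, 959 and 1173 counts, with ratios of 0.24 (0.11 to 0.36) and 0.37 (0.25 to 0.50). The ratio of POLR3A to POLR3B counts was 2.08 and 2.28 with DMSO and 1.59 and 1.45 with JQ1, the opposite direction to the corresponding pairs of polymerases I and II.

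POLR3G and POLR3GL encode alternative versions of the same subunit, of which POLR3G is known from stem cells and tumours and POLR3GL from differentiated tissues. POLR3G (ENSG00000113356, chromosome 5, 90471748 to 90514553, plus strand) had 453, 126, 411 and 130 counts. It was 3.76-fold lower without PHA, at -1.91 (-2.21 to -1.62), and 2.99-fold lower with PHA, at -1.58 (-1.88 to -1.29). Its FPKM was 3.21 and 2.78 in the DMSO libraries and 0.853 and 0.929 in the JQ1 libraries. POLR3G thus reached the mean of 1 FPKM through the DMSO libraries. POLR3GL had 651, 833, 714 and 826 counts and was higher in both JQ1 libraries, with ratios of 0.29 (0.14 to 0.44) and 0.29 (0.14 to 0.44). POLR3G made up 41.0% of the pair's counts in DMSO-treated cells (38.2 to 44.0, Wilson 95% interval) and 36.5% after PHA was added (33.8 to 39.4). In the JQ1 libraries it made up 13.1% (11.1 to 15.4) and, after PHA was added, 13.6% (11.6 to 15.9). These are shares of counts and not of molecules, because the genes differ in length. Of the POLR3GL transcript, 21.3% of 50-base stretches occur in transcripts of other genes. The processed pseudogenes of POLR3G had 8 counts or fewer in sum in each library.

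POLR3G, POLR3C and POLR3F belong to a trimer that acts in promoter opening. POLR3C had 989, 689, 983 and 615 counts, with ratios of -0.59 (-0.73 to -0.44) and -0.60 (-0.74 to -0.45), close to 1.5-fold in both. POLR3F had 289, 244, 299 and 249 counts, with ratios of -0.31 (-0.56 to -0.06) and -0.18 (-0.43 to 0.06). The trimer therefore spanned the range from the largest change of the enzyme to an interval that includes 0. POLR3D and POLR3E form a dimer that serves initiation and termination, and both were lower. POLR3D had 1466, 798, 1534 and 721 counts, with ratios of -0.94 (-1.07 to -0.82) and -1.01 (-1.14 to -0.88). POLR3E had 1570, 974, 1503 and 896 counts, with ratios of -0.75 (-0.87 to -0.64) and -0.67 (-0.79 to -0.55). POLR3K, the polymerase III counterpart of ZNRD1 and POLR2I, had 579, 391, 546 and 354 counts, with ratios of -0.63 (-0.82 to -0.44) and -0.54 (-0.74 to -0.35). All 3 counterparts were thus lower with JQ1 in both comparisons.

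CRCP (ENSG00000241258, chromosome 7, 66114604 to 66154568, plus strand) encodes a subunit of the stalk of polymerase III and had 892, 286, 619 and 645 counts. The JQ1 library without PHA stood apart from the other libraries, 3.26-fold lower than DMSO at -1.71 (-1.90 to -1.51), whereas the JQ1 + PHA library differed from DMSO + PHA by 0.14 (-0.02 to 0.30). This low value rests on 1 library, and 12.2% of the 50-base stretches of the CRCP transcript occur in transcripts of other genes.

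POLRMT, the polymerase that transcribes the mitochondrial genome, had 740, 520, 654 and 523 counts, with ratios of -0.57 (-0.74 to -0.41) and -0.24 (-0.41 to -0.07). It passed 1.5-fold in neither comparison, and 31.5% of the 50-base stretches of its transcript occur in transcripts of other genes, among them the pseudogene POLRMTP1.

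On the FPKM scale, means over the libraries ran from 64.7 for POLR2A, 49.8 for POLR2B, 39.7 for POLR2K and 24.3 for TWISTNB down to 1.94 for POLR3G and 1.43 for POLR2J4 (ENSG00000214783). Levels between genes depend on the length used, and the length behind the deposited FPKM was 0.994 to 20.4 times that of the Ensembl canonical transcript, with a median of 2.28, and was over 2 times in 22 of 35 members. Per kilobase of merged exons, POLR2A, POLR2B and POLR2K were again highest, at 97.0, 72.3 and 59.1 CPM per kilobase. Per kilobase of the canonical transcript, POLR1D was first at 170 and POLR2A next at 128 CPM per kilobase, while POLR1D ranked 17 by FPKM. The ratio of the shares of counts of 1 gene does not depend on that length, but the ratio of FPKM + 0.1 does through the pseudocount. POLR3D with PHA was 2.01-fold lower by share of counts and was not past 2-fold on FPKM + 0.1.

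The next question was whether the JQ1 ratio differed between cells without PHA and cells treated with it. Intervals without and with PHA did not overlap for 7 of the 35 members, which compares 4 single libraries and does not test the conditions. For 6 of these, CD3EAP, POLR1A, POLR2H, POLR2K, POLR2D and CRCP, the ratio with PHA was nearer to 0 or above it, and for POLR2B it was lower. Of all genes, 13.6% had separate intervals with the ratio higher with PHA and 15% with it lower. The difference was 1.85 on the log2 scale for CRCP. CD3EAP was -1.16 without PHA and -0.63 with PHA, and POLR2H was -0.61 and -0.24. The plot of the ratios against each other shows CRCP apart from the members that lie along the diagonal.

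**Figure D4:**
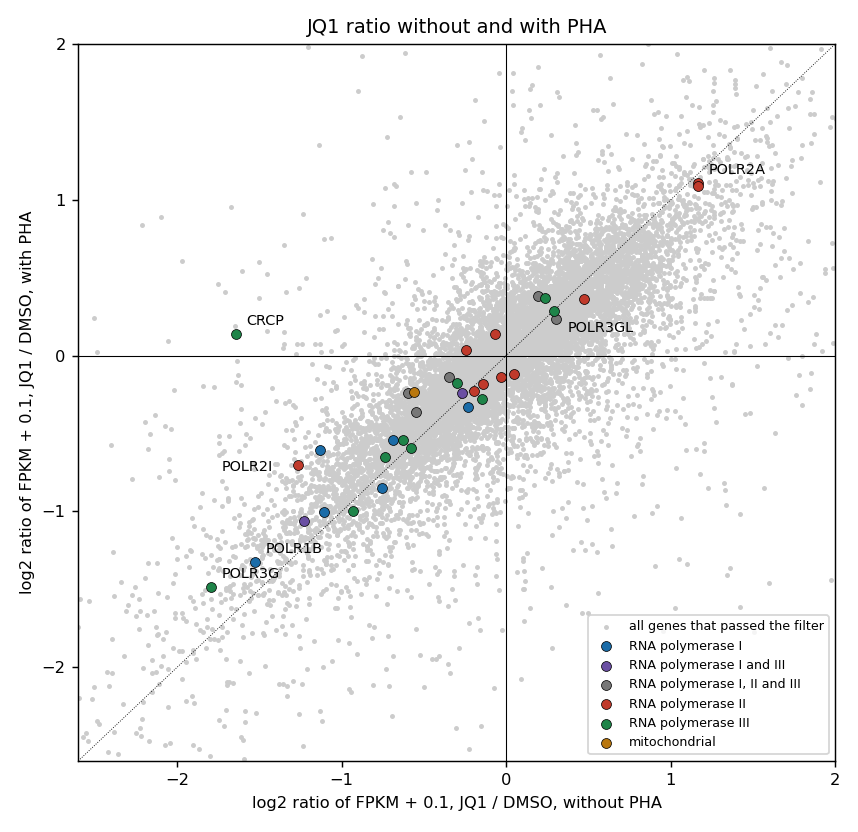
Log2 ratio of FPKM + 0.1, JQ1 against DMSO, without PHA (horizontal) and with PHA (vertical), for all 11503 genes (grey) and 34 subunit genes (coloured by enzyme). The dotted line marks equal ratios, and 254 genes lie outside the axes, which run from -2.6 to 2. CRCP lies far above the line, and POLR3G and POLR1B lie at the lower left near it.

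In DMSO, PHA by itself moved none of the 35 members past 1.5-fold, a fold that few of all genes passed. The PHA comparisons share each of their libraries with a JQ1 comparison, so their values are not independent of those above. In DMSO, 0 of 35 members were past 2-fold higher and 0 lower, against 2.1% and 1.19% of all genes. At 1.5-fold the count was again 0 and 0, against 5.59% and 3.83%. In JQ1, 1 member, CRCP, was past 2-fold higher and 0 lower, against 1.04% and 1.03% of all genes, and the same was true at 1.5-fold, against 2.58% and 3.05%. The median log2 ratio of the members was -0.12 in DMSO and 0.01 in JQ1.

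Smaller differences with PHA in DMSO exceeded counting error for 20 members, 16 lower and 4 higher, against 25.1% and 24.7% of all genes. All 5 subunits common to the nuclear polymerases were lower, with ratios of -0.17 (-0.32 to -0.03) for POLR2E, -0.40 (-0.55 to -0.25) for POLR2F, -0.31 (-0.45 to -0.18) for POLR2H, -0.16 (-0.25 to -0.07) for POLR2K and -0.52 (-0.76 to -0.27) for POLR2L. In JQ1, 3 of these 5 had intervals below 0, POLR2E, POLR2F and POLR2L. The genes above 0 in DMSO were TWISTNB at 0.25 (0.16 to 0.33), POLR2M at 0.18 (0.08 to 0.28), POLR2A at 0.14 (0.10 to 0.18) and POLR2B at 0.09 (0.04 to 0.13). TWISTNB and POLR2A were also above 0 in JQ1, at 0.15 (0.06 to 0.25) and 0.08 (0.06 to 0.11).

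Among the genes lower with JQ1, CD3EAP was also lower with PHA in DMSO, at -0.53 (-0.70 to -0.35), as was POLR2I at -0.48 (-0.73 to -0.23). POLR1B did not exceed counting error, at -0.07 (-0.16 to 0.02), and POLR3D had a ratio of 0.00 (-0.10 to 0.10). CRCP was -0.59 (-0.74 to -0.44) in DMSO, just under 1.5-fold after the pseudocount, and 1.25 (1.05 to 1.46) in JQ1, which is 2.38-fold higher and rests on the low count in the JQ1 library. In JQ1, 28 of 35 intervals included 0, 3 lay above it and 4 below, against 15.6% above and 15.7% below for all genes.

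**Figure D5:**
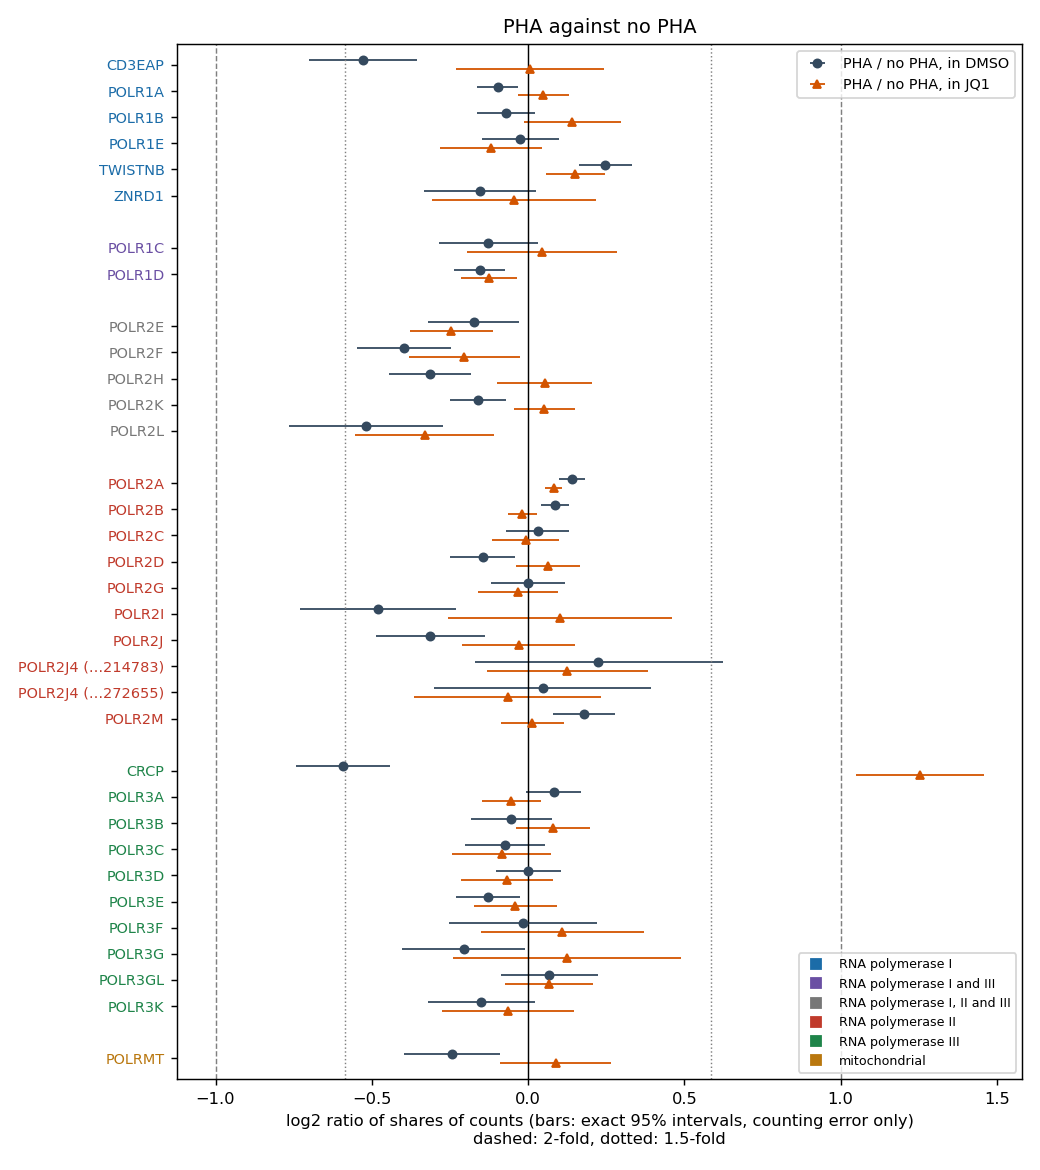
Log2 ratio of the share of counts, PHA against no PHA, for 34 subunit genes, in DMSO (circles) and in JQ1 (triangles), with exact 95% intervals that cover counting error only. Apart from CRCP, which lies at -0.59 and 1.25, all members drawn lie between the dashed lines at 2-fold, and the 5 genes shared by all nuclear polymerases lie left of 0 in DMSO.

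Polymerases act with initiation factors, and lists of these with some related factors were examined for the same comparisons. The polymerase I list holds UBTF, RRN3, TTF1, TAF1A, TAF1B, TAF1C and TAF1D. The polymerase II list holds the general factors TFIIA to TFIIH with the TAF subunits of TFIID. The polymerase III list holds genes of TFIIIA, TFIIIB, TFIIIC and the small nuclear RNA activating complex, with MAF1 and SSB. Past 1.5-fold in both JQ1 comparisons, 2 of 7 genes of the polymerase I list were lower and 0 higher, 0 of 31 of the polymerase II list were lower and 2 higher, and 2 of 17 of the polymerase III list were lower and 0 higher. The shares of all genes are the 13.2% lower and 7.82% higher given above, and the counts of the polymerase II and III lists lay near or under them. The medians without and with PHA were -0.08 and -0.13 for polymerase I, -0.00 and 0.16 for polymerase II, and -0.03 and 0.01 for polymerase III. The lists thus lay nearer to the median of all genes than the subunits of polymerases I and III did.

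TAF1A and TAF1D are subunits of the selectivity factor SL1 of polymerase I. TAF1A had 428, 274, 555 and 220 counts, with ratios of -0.71 (-0.93 to -0.49) and -1.25 (-1.49 to -1.03). TAF1D had 3575, 2353, 3880 and 2168 counts, with ratios of -0.67 (-0.74 to -0.59) and -0.76 (-0.84 to -0.68). GTF3A encodes TFIIIA, which recruits polymerase III to 5S ribosomal RNA genes. It had 5018, 2288, 4322 and 2075 counts, with ratios of -1.20 (-1.27 to -1.13) and -0.98 (-1.05 to -0.90). GTF3C6, a subunit of TFIIIC, had 1067, 195, 999 and 215 counts and ratios of -2.52 (-2.74 to -2.30) and -2.14 (-2.36 to -1.92), lower than any subunit gene of the polymerases. The genes of the polymerase II list on the other side were GTF2B, which encodes TFIIB, and GTF2A1, a subunit of TFIIA. GTF2B had 1054, 1891, 938 and 1550 counts, with ratios of 0.78 (0.67 to 0.89) and 0.80 (0.69 to 0.92). GTF2A1 had 2899, 4819, 2992 and 4333 counts, with ratios of 0.67 (0.60 to 0.74) and 0.61 (0.55 to 0.68). TAF9 of the same list was past 2-fold lower without PHA only, with 2237, 1141, 2226 and 2357 counts. Its ratios were -1.04 (-1.14 to -0.93) and 0.16 (0.08 to 0.25), so the low value rests on 1 library, as for CRCP.

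Of 5 genes of mitochondrial transcription, 1 was past 1.5-fold lower in both, against 13.2% of all genes. It was TFB2M, the initiation factor that works with POLRMT, with 681, 219, 626 and 209 counts and ratios of -1.70 (-1.93 to -1.48) and -1.50 (-1.74 to -1.27). Its change was larger than that of POLRMT in both comparisons, with intervals that did not overlap. Of 11 genes for the assembly and nuclear import of the polymerases, 2 (18.2%) were past 1.5-fold lower in both, near that share, and the medians were -0.49 and -0.17. GPN1, a GTPase needed for the nuclear import of polymerase II, had 1639, 890, 1309 and 788 counts, with ratios of -0.95 (-1.06 to -0.83) and -0.65 (-0.78 to -0.52). RUVBL1, an ATPase of the assembly chaperone complex, had 2447, 1229, 2140 and 1188 counts, with ratios of -1.06 (-1.16 to -0.96) and -0.77 (-0.87 to -0.67).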

How the data were processed

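RNA sequencing of 4 libraries of Jurkat cells, 1 per condition, was analysed from the gene tables. The authors aligned reads to GRCh38 with Hisat2 2.0.4, and the submitters' processing notes also list TopHat2 2.0.9 and Cufflinks 2.1.1. The labels and the study's methods name different library kits, of which only the latter's is called stranded. The counting program, annotation release and treatment of strand or of reads with several alignments are not given in the sources used here, so reads of overlapping genes cannot be told apart. The authors deposited a count of reads per gene, without normalization, and FPKM, which equal that count over the product of a length for the gene and the total of the library.

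From these, the log2 ratio of FPKM + 0.1 was computed for genes with a mean of at least 1 FPKM, and genes past 2-fold or 1.5-fold were counted. For single genes the ratio of the shares of counts was computed with an exact 95% interval. Pair shares have Wilson 95% intervals. Intervals and the floor of 3 counts cover counting error only. Exon overlap, strands and shared 50-base stretches came from GENCODE release 44 on GRCh38, and gene positions from the gene tables. Interval computation was tested on simulated data. Conditions were not tested against each other, since none has a second library.

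The members and lists were chosen with earlier results of these data known. Genes named with their counts are the 2 largest subunits of each enzyme, POLRMT, POLR3G and POLR3GL, the POLR2J genes, the shared subunits, and members past 1.5-fold in any comparison with an interval that excludes 0. Other members are named to complete a complex, and this was decided after their values were seen. Factors are named if past 1.5-fold in both JQ1 comparisons in the same direction. TAF9 is named besides these for its low count in the JQ1 library without PHA, which was decided after its values were seen. Alternatives were the pseudocount, the filter, the fold, the scaling and the set of members. Ratios and exact intervals were computed with scipy 1.17.1 in Python 3.11.15, tables with pandas 2.3.3 (numpy 2.4.6) and plots with matplotlib 3.10.9. In R 4.3.3, DESeq2 1.42.0 gave size factors and edgeR 4.0.16 gave TMM factors for scaling only. Some results are left out of the text and plots because they need withheld items; the genes concerned remain in the counts, medians and sums.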

Additional observations from a re-analysis of the deposited data

How the results depend on the processing

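No paired analysis was possible because each condition is 1 library, and for the same reason no replicate could be left out. Of 112 recomputed counts and medians, 89 stayed within 1.5 times the count, or within a typical interval of the median, and 23 did not. For JQ1 without PHA, 2 members were past 2-fold higher and 8 lower. With a pseudocount of 1 these were 1 and 3, with a mean of at least 5 FPKM (19 members) 1 and 0, at 1.5-fold the lower count was 14, at 3-fold they were 0 and 2, and without the POLR2J genes, pseudogenes and POLRMT (31 members) the higher count was 1. The median of -0.35 became -0.20 at 5 FPKM and -0.55 without those genes. For JQ1 with PHA, 2 higher and 4 lower became 1 and 1 with a pseudocount of 1, 1 and 0 at 5 FPKM, and 0 and 0 at 3-fold. The lower count was 3 with each of the alternative scalings and 11 at 1.5-fold. The higher count was 4 without a filter (43 members) and 1 without the copies. For PHA in DMSO, 0 higher became 1 without a filter. For PHA in JQ1, 1 higher became 0 with a pseudocount of 1, at 5 FPKM and at 3-fold. No member past 2-fold lower had a mean of 5 FPKM or more. Scaling by TMM factors, DESeq2 size factors, the median gene or nuclear genes moved ratios by at most 0.06 on the log2 scale. Of 700 single-gene values, 677 stayed within their interval, 23 moved (17 with the pseudocount, 2 with TMM and 4 with DESeq2) and 0 changed sign while called. Among the 35 genes, depth limited POLR2J4, POLR3G and POLR2I most, whose lowest counts were 99, 126 and 132.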
